A study of Mus musculus with 4 samples.

Results

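The genes of the splicing machinery examined here encode SR proteins, heterogeneous nuclear ribonucleoproteins (hnRNPs) and proteins of the small nuclear ribonucleoproteins (snRNPs). They were taken from the array's own gene names, as every gene whose name began with Hnrnp, Hnrp, Srsf, Snrp or Sf3, or with Sfrs and a digit, leaving out Snrpn. Under current symbols these were 60 genes among those on the array, made up of 20 SR genes, 21 hnRNP genes, 11 Snrp genes and 8 Sf3 genes. The filter on dim probes kept 59 of them, and 13922 genes in all. The SR group held 11 Srsf genes and 9 SR-related genes that once carried Sfrs names, namely Akap17b, Clasrp, Pnisr, Scaf11, Scaf4, Sfswap, Srek1, Srek1ip1 and Sugp2.

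The cells were primary embryonic fibroblasts of wild-type C57BL/6 mice. The Xpo5 siRNA group (2 arrays) received 60 nM of siRNA against Exportin-5, the nuclear exporter of microRNA precursors, and the control siRNA group (2 arrays) received 60 nM of a negative control siRNA. In both groups the first transfection lasted 12 h, the cells were then held in 0.2% serum for 48 h, and they were given 20% serum for 24 h together with a second dose of the same siRNA, so every value is from serum-refed cells. The series describes 2 independent experiments, and the replicate numbers are read here as those experiments. Neither the sequences of the siRNAs nor the number of embryos behind the cells is given in the sources used here.

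Splicing removes introns from pre-mRNA in the spliceosome, a machine assembled afresh on each intron. Most spliceosomal snRNPs carry a small nuclear RNA held in a ring of Sm proteins, and the SF3 complex belongs to the U2 snRNP, which grips the branch point. SR proteins have RNA recognition motifs and a tail rich in arginine and serine, and many of them bind exonic enhancers and recruit the snRNPs. The hnRNPs coat nascent transcripts, and several of them silence exons and so oppose SR proteins. Genes of all these families are expressed in growing fibroblasts, and many SR and hnRNP proteins adjust their own mRNA level through alternative exons that mark the transcript for decay.

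An Agilent array reads each gene with probes of up to 60 bases, and where the probe lies decides which mRNA forms it can see. The 4 probes printed here are the ones used for their gene, each covers over 100 bases of genome and so crosses at least 1 exon junction, and each has a reading frame free of stop codons. They are shown because they read spliced RNA of genes that lie at different places in the ranking. Coordinates are those of the array files (mm9), the letters run 5′ to 3′ in the sense of the mRNA, and no base is in capitals because the exon borders were not located.
Srsf5 probe, chr12:82047706-82048355, plus strand: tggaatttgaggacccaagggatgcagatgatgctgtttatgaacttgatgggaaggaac
Hnrnpu probe, chr1:180259487-180260006, minus strand: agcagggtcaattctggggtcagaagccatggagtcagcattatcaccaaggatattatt
Snrpf probe, chr10:93046231-93046789, minus strand: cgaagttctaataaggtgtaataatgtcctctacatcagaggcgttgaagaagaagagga
Sf3b1 probe, chr1:55069101-55071370, minus strand: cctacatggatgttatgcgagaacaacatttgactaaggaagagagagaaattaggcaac
Of the 125 probes of the 60 genes, 17 covered over 100 bases of genome, and 9 of these were the probe used for a gene.

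Xpo5 fell in the Xpo5 siRNA group, in the direction its label gives. Its log2 signal, given throughout relative to the 75th percentile of the same array, was -1.95 and -1.93 in Xpo5 siRNA cells, against 1.31 and 1.26 in control siRNA cells. The difference was -3.23 ± 0.124 (standard error, SE) with an adjusted p of 0.0107 in limma's moderated test. The call was lost without the filter on dim probes (-3.23, adjusted p = 0.168), with the mean of the gene's probes (-2.55, adjusted p = 0.149) and without replicate 1 of Xpo5 siRNA (-3.22, adjusted p = 0.0626). The share of spots that Feature Extraction flagged as well above background was 62.4% to 64.96% per array, no spot was saturated, and 3 of 13922 genes (0.0215%) passed an adjusted p of 0.05. With the experiment as a block in limma, 608 genes (4.37%) passed, 193 of them lower (1.39%) and 415 higher (2.98%). In 2 arrays against 2, an exact permutation test of a single gene cannot give a two-sided p below 0.333.

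Most splicing genes read slightly lower with Xpo5 siRNA, and none of them passed the test. The median log2 difference over the 59 genes was -0.14, beside 0.006 over all genes tested, and 48 of the 59 were below 0, beside 48.9% of all genes. Scaling to the arrays' medians moved the median of all genes to -0.10 and put 55 splicing genes and 63.7% of all genes below 0, and the gap between the splicing median and that of all genes was -0.14 with either scaling. No splicing gene passed an adjusted p of 0.05 in limma, and none passed with the experiment as a block. At an unadjusted p under 0.05 the counts were 3 lower (5.8% of all genes) and 1 higher (8.87%) without the block, and 9 lower (12.4% of all genes) and 1 higher (16.2%) with it. The share of splicing genes with such a p was therefore at or under the background in the fit without the block, and near it on the lower side in the fit with it. The smallest adjusted p was 0.213, of Akap17b, without the block, and 0.0655, of Srsf4, with it. Fewer cells of a type and less RNA per cell cannot be told apart in these bulk samples.

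**Figure D1:**
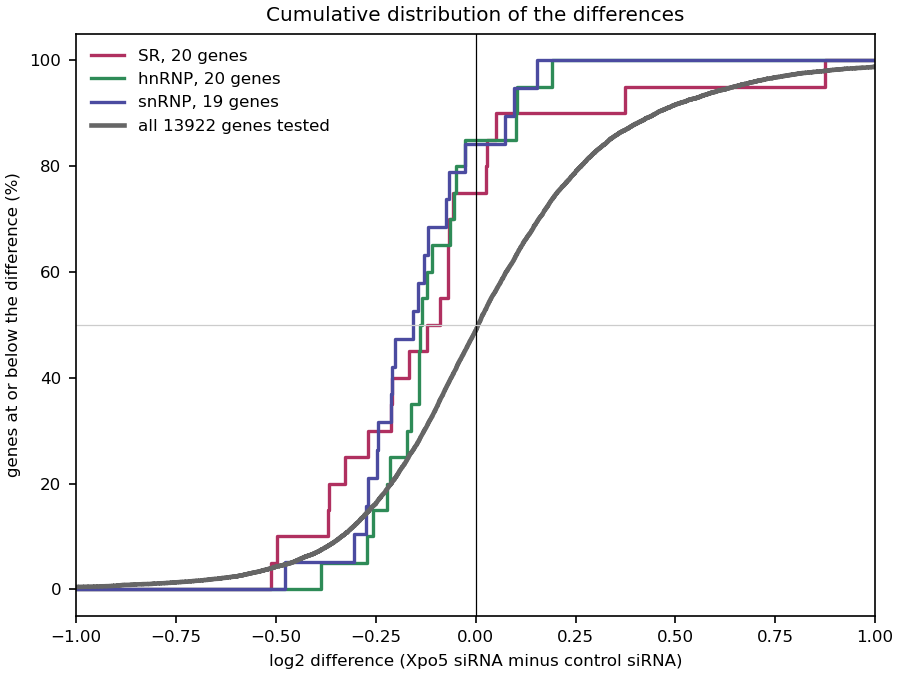
Cumulative distribution of the log2 difference (Xpo5 siRNA minus control siRNA, horizontal axis) as the percentage of genes at or below it (vertical axis), for the SR, hnRNP and snRNP genes and for all 13922 genes tested. The curves of the splicing groups cross 50% between -0.16 and -0.11, and that of all genes at 0.006.

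The differences were small and close together. The interquartile range of the splicing genes was -0.23 to -0.06, and that of all genes was -0.17 to 0.20. In experiment 1 the median over the splicing genes was -0.12, beside -0.008 for all genes. In experiment 2 it was -0.15, beside 0.02 for all genes. Of the 59 genes, 36 were lower in both experiments (35.2% of all genes) and 6 were higher in both (36.7%). In 25 the Xpo5 siRNA arrays both lay below both control siRNA arrays (22.9% of all genes), and in 2 both lay above (24.7%).

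Each slide, scanned on its own, held 1 array of each group, with opposite replicate numbers. Within slide 1 the median over the splicing genes was -0.09, beside 0.05 over all genes, and within slide 2 it was -0.18, beside -0.04 over all genes. Splicing genes were also bright. With all genes tested cut into 4 equal bins by mean signal, 40 of the 59 lay in the brightest bin, where the median over all genes was -0.02 and 54.1% were below 0, and 36 of those 40 splicing genes were below 0. In the next bin the median over all genes was -0.05, and 6 of 12 splicing genes were below 0, with a median of -0.02. The 7 splicing genes in the dimmer bins included 6 below 0, in bins where 47.8% and 36.0% of all genes were below 0. Over all genes the standard deviation of the difference was 0.49 in the dimmest bin and 0.24 in the brightest. The part of signal strength in the members' median and in their narrow interquartile range was not tested.

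**Figure D2:**
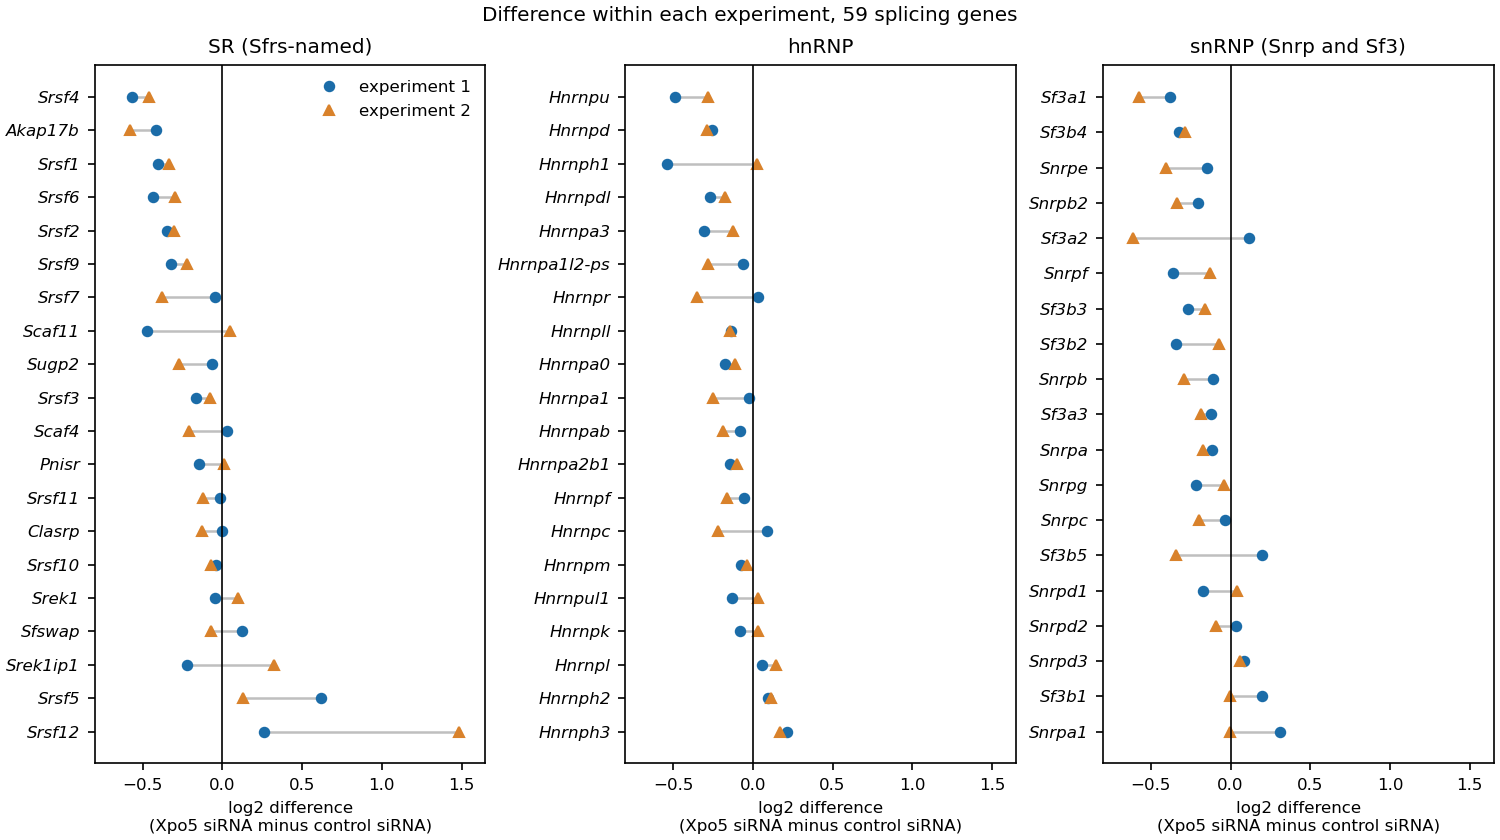
Log2 difference (Xpo5 siRNA minus control siRNA, horizontal axis) of each of the 59 splicing genes in experiment 1 (circles) and experiment 2 (triangles), in panels for the SR, hnRNP and snRNP genes, with the lowest mean difference at the top. In 36 genes both points lie left of 0, in 6 both lie right of it, and the points of Srsf12 lie furthest apart.

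The SR genes showed the widest range. Their median difference was -0.11, with 15 of 20 below 0. The 11 Srsf genes had a median of -0.21 and 9 were below 0 in both experiments, and the 9 SR-related genes had a median of -0.07 with 6 below 0, which was -0.03 without replicate 2 of Xpo5 siRNA, against -0.12 without replicate 2 of control siRNA. Within slide 1 the median of the Srsf genes was -0.006 and within slide 2 it was -0.27. Over the other settings it ranged from -0.32, without replicate 1 of Xpo5 siRNA, to -0.095, with normexp background correction, and it was -0.099 without replicate 1 of control siRNA.

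Srsf4, a long SR protein also known as SRp75, had the lowest difference of the Srsf genes. It read 1.95 and 1.49 in Xpo5 siRNA cells, against 2.51 and 1.95 in control siRNA cells. The Xpo5 siRNA array was the lower in each experiment, by 0.56 in experiment 1 and 0.46 in experiment 2. Experiment 1 read brighter in both groups. Paired by slide instead, the difference was -0.0018 within slide 1 and -1.02 within slide 2. The groups came next to each other without overlap. The difference was -0.51 ± 0.26 (SE), with an adjusted p of 0.437 in limma without the block and 0.0655 with it. A second Srsf4 probe, which read -1.02 and -0.996 in Xpo5 siRNA cells against -0.62 and -0.51 in control siRNA cells, differed by -0.44.

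Srsf1, the prototype SR protein and an enhancer of splice site use, read 2.82 and 2.72 in Xpo5 siRNA cells, against 3.23 and 3.06 in control siRNA cells. The groups did not overlap, and the difference was -0.37 ± 0.138 (SE; limma, adjusted p = 0.323). The probe behind this value was assigned to another transcript record than a second Srsf1 probe, which read -2.02 and -1.59 in Xpo5 siRNA cells against -2.15 and -1.51 in control siRNA cells, a difference of 0.03. The groups overlapped at that second probe, so the probes of Srsf1 did not give the same answer.

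Srsf6, known as SRp55, read 3.0 and 2.91 in Xpo5 siRNA cells, against 3.44 and 3.21 in control siRNA cells. The groups did not overlap, and the difference was -0.37 ± 0.146 (SE; limma, adjusted p = 0.348). Srsf2, the nuclear speckle protein SC35, read 4.55 and 4.12 in Xpo5 siRNA cells, against 4.89 and 4.42 in control siRNA cells. Its groups overlapped, but both experiments gave a lower value with Xpo5 siRNA, by 0.35 and 0.31. Paired by slide, Srsf2 differed by 0.12 within slide 1 and -0.78 within slide 2. All 4 Srsf2 probes had a negative difference, between -0.55 and -0.24. Srsf9, a short SR protein, read 4.49 and 4.25 in Xpo5 siRNA cells, against 4.81 and 4.47 in control siRNA cells. Its groups overlapped, and the difference was -0.27, with 0.02 within slide 1 and -0.56 within slide 2.

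**Figure D3:**
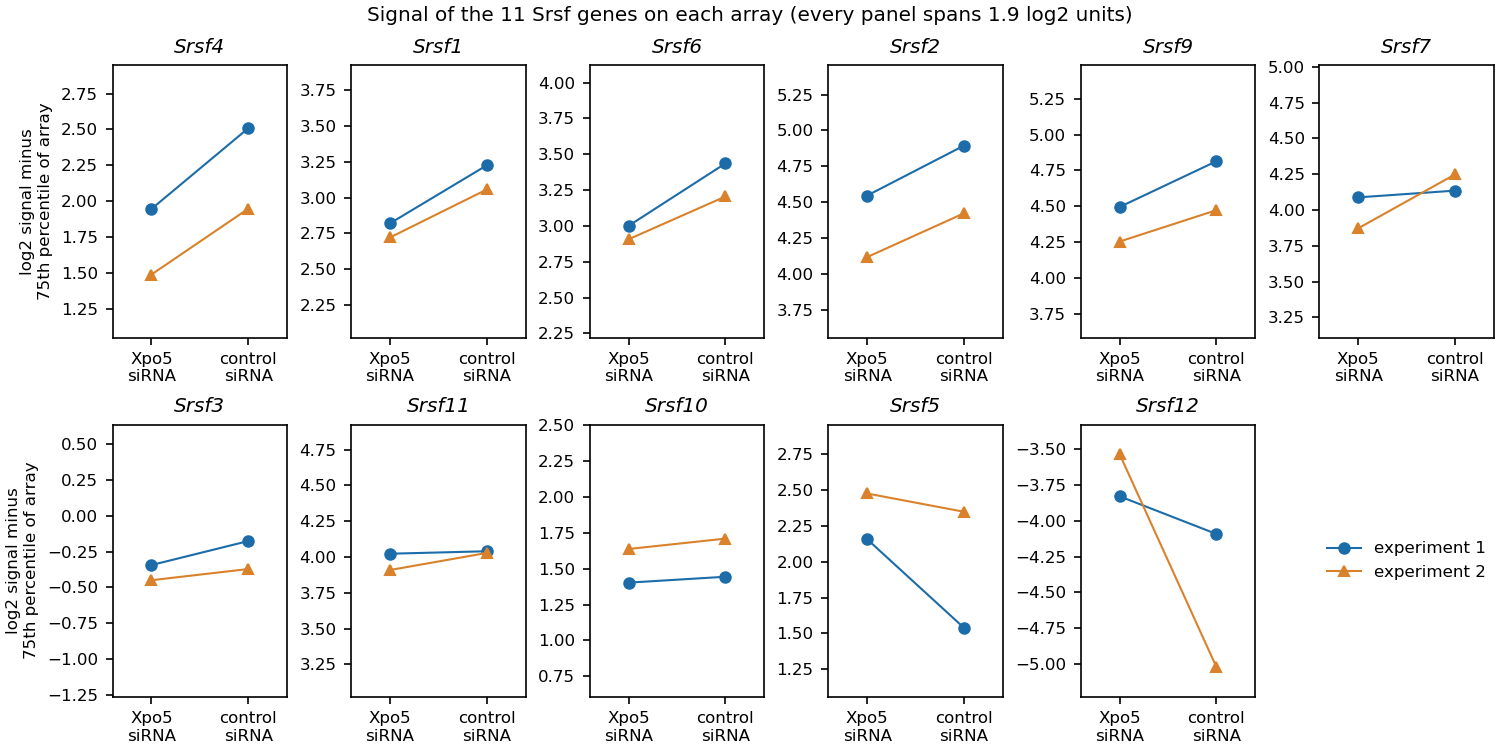
Log2 signal relative to the array's 75th percentile (vertical axis, the same span in every panel) of the 11 Srsf genes in Xpo5 siRNA and control siRNA cells (horizontal axis), with lines joining the arrays of experiment 1 (circles) and experiment 2 (triangles). Both lines run upward towards control siRNA in 9 panels and downward in those of Srsf5 and Srsf12.

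Srsf5, known as SRp40, read higher with Xpo5 siRNA at the exon-spanning probe printed above, at 2.16 and 2.48 in Xpo5 siRNA cells against 1.54 and 2.35 in control siRNA cells. The groups overlapped, and most of the difference of 0.37 ± 0.301 (SE; limma, adjusted p = 0.608) came from experiment 1, where it was 0.62, against 0.13 in experiment 2. Srsf12, a small SR protein, was near the dim end of the kept probes, at -3.83 and -3.53 in Xpo5 siRNA cells against -4.09 and -5.02 in control siRNA cells. Its difference of 0.87 ± 0.331 (SE; limma, adjusted p = 0.329) was 0.26 in experiment 1 and 1.49 in experiment 2, so the low control array of experiment 2 sets most of it. Srsf7, a zinc knuckle SR protein, differed by -0.21, and Srsf3, a small shuttling SR protein that takes part in mRNA export, by -0.12. Srsf11 and Srsf10 differed by -0.07 and -0.06 at the probes used.

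Among the SR-related genes, Akap17b had the smallest unadjusted p of all splicing genes. It read -2.995 and -3.09 in Xpo5 siRNA cells, against -2.58 and -2.51 in control siRNA cells, all near the dim end. The groups did not overlap, and the difference was -0.50 ± 0.129 (SE; limma, adjusted p = 0.213 without the block and 0.072 with it). The other 8 genes lay between -0.21 and 0.05. Scaf11, which lay lowest among them, differed by -0.47 in experiment 1 and 0.05 in experiment 2, and Srek1ip1, which lay highest, by -0.22 and 0.32.

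Of 20 kept hnRNP genes, 17 were below 0, with a median of -0.14 and values from -0.39 to 0.19. Hnrnpu, the scaffold attachment factor that binds both RNA and chromatin, had the lowest value. Its printed probe read 4.98 and 4.92 in Xpo5 siRNA cells, against 5.47 and 5.20 in control siRNA cells. The groups did not overlap, the difference was -0.39 ± 0.151 (SE; limma, adjusted p = 0.342), and a second Hnrnpu probe differed by -0.17. Hnrnpd, the AU-rich element binding protein AUF1, read 4.20 and 3.91 in Xpo5 siRNA cells, against 4.45 and 4.20 in control siRNA cells. These groups were next to each other without overlap, and the difference was -0.27 ± 0.172 (SE; limma, adjusted p = 0.52).

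All 7 genes of the A, B and D types, which are closely related proteins with paired RNA recognition motifs, read lower with Xpo5 siRNA, between -0.27 and -0.12. They were Hnrnpa0, Hnrnpa1, Hnrnpa2b1, Hnrnpa3, Hnrnpab, Hnrnpd and Hnrnpdl, a grouping made after their values were seen. Hnrnpab was the brightest, at 7.93 and 7.85 in Xpo5 siRNA cells against 8.01 and 8.04 in control siRNA cells, and differed by -0.13 ± 0.126 (SE; limma, adjusted p = 0.662). The processed pseudogene Hnrnpa1l2-ps, which differed by -0.17, resembles Hnrnpa1, and its probe may read both. Hnrnpdl differed by -0.22 and Hnrnpa3 by -0.21.

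The 4 genes of the F and H types, whose proteins bind runs of guanines, were split, with 2 below and 2 above 0. This split depended on the scaling. With median scaling 19 of the 20 kept hnRNP genes were below 0, and Hnrnph3, at 0.09, was the only one above. Hnrnph1 differed by -0.54 in experiment 1 and 0.02 in experiment 2. Hnrnph3 was the hnRNP gene with the highest difference, at 3.05 and 3.04 in Xpo5 siRNA cells against 2.84 and 2.87 in control siRNA cells. Its groups did not overlap, and the difference was 0.19 ± 0.123 (SE; limma, adjusted p = 0.526). Hnrnph2 differed by 0.10, and so did Hnrnpl, which binds CA repeats. Hnrnpk, a binder of cytosine-rich RNA, Hnrnpm and Hnrnpc, a binder of uridine tracts, lay between -0.07 and -0.03 at the probes used. The other Hnrnpk probes differed by -0.31, without overlap, and by 0.20, with overlap, and a second Hnrnpc probe by -0.27. Hnrnpul2 was not kept, since it was well above background on 1 of 2 arrays in each group.

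The Snrp genes had a median difference of -0.13, with 9 of 11 below 0, and the median was -0.08 without replicate 2 of Xpo5 siRNA. Of the 7 genes for proteins of the Sm ring, 6 were below 0, with a median of -0.13. Snrpe, one of them, read 4.36 and 3.91 in Xpo5 siRNA cells, against 4.51 and 4.31 in control siRNA cells. The groups overlapped, and the difference was -0.28 ± 0.197 (SE; limma, adjusted p = 0.567). Snrpf, another, read 4.03 and 4.01 in Xpo5 siRNA cells, against 4.39 and 4.13 in control siRNA cells, without overlap. Its difference was -0.24 ± 0.147 (SE; limma, adjusted p = 0.504) at the printed probe and -0.37 at a second probe that crosses another junction. Snrpb differed by -0.20, Snrpg by -0.13, Snrpd1 by -0.07, Snrpd2 by -0.03 and Snrpd3 by 0.07.

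The other 4 Snrp genes belong to the U1 and U2 snRNPs. Snrpb2, a U2 protein, read 3.79 and 3.52 in Xpo5 siRNA cells, against 3.996 and 3.85 in control siRNA cells, without overlap. The difference was -0.27 ± 0.156 (SE; limma, adjusted p = 0.485). Its U2 partner Snrpa1 lay at the other end, with a difference of 0.31 in experiment 1 and -0.004 in experiment 2. The U1 proteins Snrpa and Snrpc differed by -0.15 and -0.12, and all 4 Snrpa probes were lower, between -0.38 and -0.15.

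The Sf3 genes had a median of -0.21, with 7 of 8 below 0. Without replicate 2 of control siRNA 5 of 8 were below 0, and with normexp background correction the median was -0.14. Sf3a1, a subunit of the SF3A part of the U2 snRNP, read 2.67 and 2.32 in Xpo5 siRNA cells, against 3.05 and 2.89 in control siRNA cells. The groups did not overlap, and the difference was -0.48 ± 0.172 (SE; limma, adjusted p = 0.312 without the block and 0.0802 with it). Its second probe differed by -0.22. Sf3b4, of the SF3B part, read 3.01 and 2.81 in Xpo5 siRNA cells, against 3.33 and 3.09 in control siRNA cells. The groups did not overlap, and the difference was -0.30 ± 0.158 (SE; limma, adjusted p = 0.446).

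Sf3a2 differed by 0.12 in experiment 1 and -0.61 in experiment 2, on a dim probe. Sf3b3, Sf3b2 and Sf3a3 differed by -0.21, -0.21 and -0.16, each with both Xpo5 siRNA arrays below both control siRNA arrays. Sf3b5, a small subunit, differed by 0.20 in experiment 1 and -0.34 in experiment 2. Sf3b1, which holds the branch point, read 0.59 and 0.90 at its printed probe in Xpo5 siRNA cells, against 0.40 and 0.91 in control siRNA cells. The groups overlapped, the difference was 0.10, and a second Sf3b1 probe differed by -0.11.

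The SR, hnRNP and snRNP groups had close medians, and their order changed with how the arrays were paired. The snRNP group, which joins the Snrp and Sf3 genes, had a median of -0.16 with 16 of 19 below 0. The SR median lay 0.05 above the snRNP median and 0.03 above the hnRNP median, and the hnRNP median lay 0.02 above the snRNP median. In experiment 1 the medians were -0.11 for SR, -0.08 for hnRNP and -0.12 for snRNP genes. In experiment 2 they were -0.12 for SR, -0.13 for hnRNP and -0.17 for snRNP genes, so the snRNP median was the lowest of these groups in both experiments. Within slide 1 it was also the lowest, at -0.11 beside -0.09 for SR and -0.08 for hnRNP genes. Within slide 2 it was the highest, at -0.15 beside -0.24 for SR and -0.16 for hnRNP genes. Each of the 3 gaps turned its sign under at least 1 other setting. No p is given for a score over the members.

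Probes of the same gene often differed from each other. Of 36 splicing genes with at least 2 probes well above background on all 4 arrays, 16 had probes of opposite sign. Among the 122 such probes taken singly, 94 were lower with Xpo5 siRNA. Hnrnpa2b1 was the only gene with probes that went opposite ways without overlap in either. The probe used read 4.28 and 4.35 in Xpo5 siRNA cells, against 4.42 and 4.45 in control siRNA cells, a difference of -0.12. The other read 4.33 and 4.20 in Xpo5 siRNA cells, against 4.02 and 3.99 in control siRNA cells, a difference of 0.26.

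Srsf10, an SR protein that represses splicing when it is dephosphorylated, had 4 probes between -0.50 and -0.04. The lowest, assigned to another transcript record than the probe used, read -0.18 and -0.34 in Xpo5 siRNA cells, against 0.38 and 0.10 in control siRNA cells. There the groups did not overlap, while at the probe used they did, with a difference of -0.06. Hnrnpab showed a like range, with its 4 probes between -0.50 and -0.13, all negative. Hnrnpa3 had 3 probes between -0.31 and -0.21 and another at 0.22. What each probe pair measures, whether mRNA forms or the probes' own response, was not tested.

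**Figure D4:**
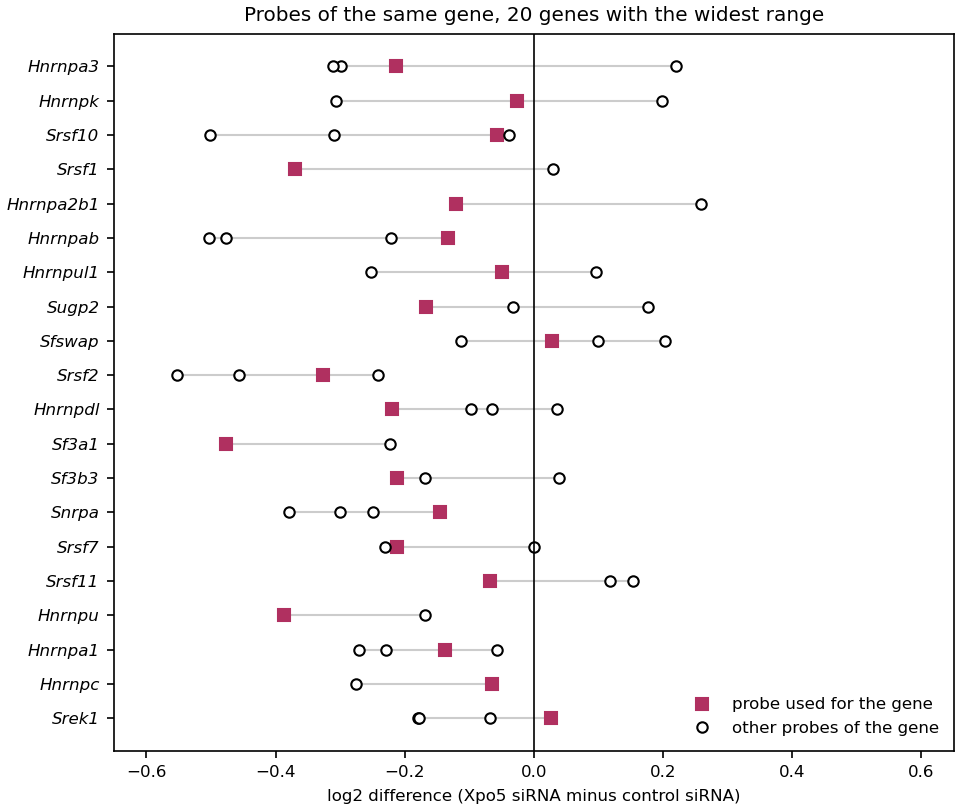
Log2 difference (Xpo5 siRNA minus control siRNA, horizontal axis) of every probe well above background on all 4 arrays, for the 20 splicing genes with the widest range among their probes. Squares are the probe used for the gene and open circles its other probes, and in Hnrnpa2b1 the probes lie at -0.12 and 0.26.

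Because most members read lower together, their promoters were searched for short motifs. RefSeq promoters (GRCm38.p6, 250 bases before the start site to 50 after it) were found for 52 of the 60 genes, 69 promoters in all. The motifs were TTCCCGCC, TTTCGCGC and TTTGGCGC for E2F-type sites, CCGGAAG for ETS-type sites, CACGTG for E-boxes, TGACGTCA for cyclic AMP response elements and CCAAT, each on both strands. E2F factors drive genes of the entry into S phase, and ETS factors bind many promoters of housekeeping genes.

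The lines that follow give the promoters of the gene with the lowest difference in each family, and of Srsf5, which read higher. Each runs from 250 bases before the start site to 30 after it, in the sense of the gene, from the first promoter listed for it, and capitals mark TTCCCGCC or CCGGAAG on either strand.
Srsf4 promoter, chr4:131873387-131873666, plus strand: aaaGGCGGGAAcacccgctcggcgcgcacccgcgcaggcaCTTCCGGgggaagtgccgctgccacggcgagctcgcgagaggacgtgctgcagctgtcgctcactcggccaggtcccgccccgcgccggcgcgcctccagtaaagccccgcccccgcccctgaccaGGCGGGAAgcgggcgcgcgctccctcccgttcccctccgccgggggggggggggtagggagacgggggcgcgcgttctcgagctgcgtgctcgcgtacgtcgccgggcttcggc
Srsf5 promoter, chr12:80945249-80945528, plus strand: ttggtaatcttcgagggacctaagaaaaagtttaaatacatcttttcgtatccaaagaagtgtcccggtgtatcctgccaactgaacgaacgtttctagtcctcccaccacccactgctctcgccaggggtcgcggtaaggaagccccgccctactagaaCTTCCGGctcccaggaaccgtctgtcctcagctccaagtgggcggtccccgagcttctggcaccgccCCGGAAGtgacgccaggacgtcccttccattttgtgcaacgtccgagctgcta
Hnrnpu promoter, chr1:178337786-178338065, minus strand: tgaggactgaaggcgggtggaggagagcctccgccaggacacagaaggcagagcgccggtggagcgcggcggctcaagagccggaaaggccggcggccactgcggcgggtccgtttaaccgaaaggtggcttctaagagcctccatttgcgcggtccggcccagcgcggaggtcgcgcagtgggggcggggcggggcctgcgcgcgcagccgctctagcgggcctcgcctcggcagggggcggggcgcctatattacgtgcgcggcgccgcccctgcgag
Snrpe promoter, chr1:133610251-133610530, minus strand: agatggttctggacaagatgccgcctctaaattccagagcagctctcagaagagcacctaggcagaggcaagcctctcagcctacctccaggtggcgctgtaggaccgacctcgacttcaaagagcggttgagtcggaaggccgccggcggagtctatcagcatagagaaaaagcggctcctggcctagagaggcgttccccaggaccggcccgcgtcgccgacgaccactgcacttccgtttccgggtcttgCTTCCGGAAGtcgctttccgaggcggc
Sf3a1 promoter, chr11:4160104-4160383, plus strand: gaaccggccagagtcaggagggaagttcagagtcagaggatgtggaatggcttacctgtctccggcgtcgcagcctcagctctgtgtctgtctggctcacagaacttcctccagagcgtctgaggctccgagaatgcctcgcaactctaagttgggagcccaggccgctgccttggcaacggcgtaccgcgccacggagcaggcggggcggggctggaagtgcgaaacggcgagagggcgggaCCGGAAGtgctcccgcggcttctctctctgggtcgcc
Srsf4 held TTCCCGCC at 2 places and CCGGAAG at 1, all reversed. Snrpe held a palindrome in which CCGGAAG overlaps its own reverse complement just after the start site, Sf3a1 held CCGGAAG ending 1 base before the start site, and Srsf5 held it at 2 places. Hnrnpu held none of the motifs marked.

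CCGGAAG was present in 25 of the 69 promoters (36.2%), beside 8.86% of all 32851 promoters in the table and 15.8% of the 13944 promoters of the other genes tested. TTCCCGCC was present in 11 promoters (15.9%), beside 2.19% of all and 3.64% of those of the other genes tested. Alternative promoters of a gene lie close together and can share a match, so the 11 belonged to 8 genes, Hnrnpa2b1, Hnrnpf, Hnrnpr, Hnrnpul1, Scaf4, Srsf1, Srsf10 and Srsf4. CACGTG was present in 11.6% of the promoters, beside 7.15% of all and 9.45% of those of the other genes tested, and CCAAT in 42%, beside 37.4% and 37.5%. TGACGTCA was present in 2.9%, beside 1.79% and 2.91%. TTTCGCGC was present in 1 promoter (1.45%), beside 0.323% and 0.581%, and TTTGGCGC in 0 of 69, beside 0.514% and 0.875%.

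Members with and without a motif had like medians. The 8 kept genes with TTCCCGCC had a median of -0.11 and were all below 0, and the 44 without it had a median of -0.14, with 33 below 0. The 18 with CCGGAAG had a median of -0.18 with 15 below 0, and the 34 without it had a median of -0.13 with 26 below 0. A match is only a stretch of letters, and binding was not measured.

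Other genes that act with the splicing machinery had like medians. The 57 other spliceosome proteins had a median of -0.13, with 48 below 0 and none passing the test. Lsm2 and Lsm3, of the Sm-like ring on U6 snRNA, differed by -0.56 and -0.54. The other Lsm genes of that ring, Lsm4, Lsm5, Lsm6, Lsm7 and Lsm8, lay between -0.14 and -0.05. Pdcd7, a protein of the minor spliceosome, differed by -0.44. The 20 genes for hnRNP-type proteins with other names had a median of -0.18 with 15 below 0 and none passing. The 23 genes for other SR-related proteins and SR protein kinases had a median of -0.08 with 16 below 0 and none passing. Within slide 1 the medians were -0.05 for the other spliceosome proteins, -0.05 for the hnRNP-type proteins and 0.01 for the other SR-related proteins and kinases. Within slide 2 they were -0.25, -0.32 and -0.25. All genes tested had 0.05 within slide 1 and -0.04 within slide 2. Rbmx, Celf1, Ewsr1 and Ptbp1, all RNA-binding regulators of splicing, differed by between -0.62 and -0.40. Srpk1, which phosphorylates SR proteins, differed by -0.42, and so did Pnn, a partner of SR proteins at exon junctions. Of the other SR-related proteins and kinases, 7 were lower and 4 higher without overlap. Those higher were Clk1 (0.26), Son (0.17), Tra2a (0.14) and Prpf4b (0.10).

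The 18 genes of Sm ring assembly had a median of -0.14 (-0.27 within slide 1 and -0.11 within slide 2), with 14 below 0. None passed without the block, and 2 fell with the experiment as a block, where 1.39% of all genes did. Coil, the scaffold of the Cajal body, fell by 0.92 on the log2 scale, with an adjusted p of 0.0437 in the blocked limma fit. Prmt5, which methylates Sm proteins, fell by 0.68 on the log2 scale, with an adjusted p of 0.048 in the same fit. Coil read 0.36 and 0.09 in Xpo5 siRNA cells, against 1.33 and 0.95 in control siRNA cells. Prmt5 read 1.74 and 1.81 in Xpo5 siRNA cells, against 2.47 and 2.44 in control siRNA cells. Its cofactor Wdr77 differed by -0.46. The 14 genes of the exon junction complex and nonsense-mediated decay kept had a median of -0.14 with 10 below 0 and none passing. Their median was -0.07 within slide 1 and -0.14 within slide 2. Upf1, the decay helicase, differed by -0.58.

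**Figure D5:**
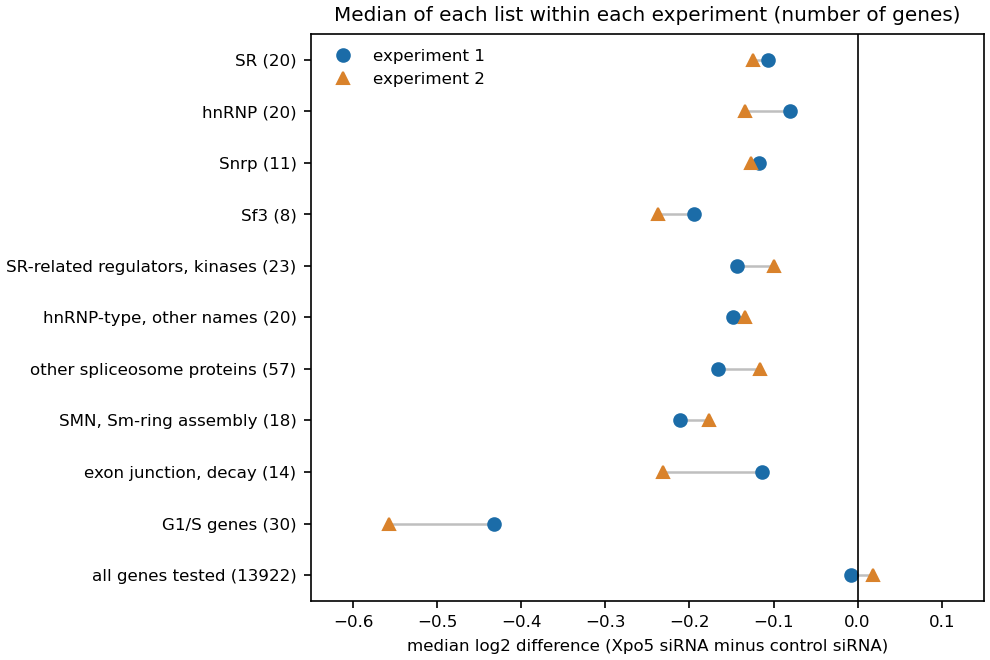
Median log2 difference (Xpo5 siRNA minus control siRNA, horizontal axis) of each list in experiment 1 (circles) and experiment 2 (triangles), with the number of genes in brackets. The splicing lists lie between -0.24 and -0.08 in both experiments, the G1/S genes at -0.43 and -0.56, and all genes tested at -0.008 and 0.02.

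The groups also differed in genes outside splicing, and those values belong beside the results above. The 30 G1/S genes, which are induced as cells enter S phase, had a median of -0.48, with 29 below 0. With the block 6 of them passed, all lower, where 1.39% of all genes did. All 15 macrophage markers read higher with Xpo5 siRNA, with a median of 0.66. With the block 5 of these passed, where 2.98% of all genes passed as higher. Their summed level was 6.46 and 6.23 on the log2 scale in Xpo5 siRNA cells, against 5.97 and 5.47 in control siRNA cells. The 12 fibroblast markers, all measured, had a median of 0.05 and none passing with the block. Their summed levels were 10.97 and 10.84 in Xpo5 siRNA cells against 10.84 and 10.70 in control siRNA cells. Of 11 neural markers listed, 9 were kept and Gfap and Dcx were not. The 9 had a median of 0.42 with 2 below 0, and 3 passed as higher with the block. But their summed level was lower with Xpo5 siRNA, at 4.29 and 4.34 in Xpo5 siRNA cells against 4.68 and 4.65 in control siRNA cells. Nes and Tubb3 differed by -0.45 and -0.38. Of 7 endothelial markers listed, 4 were kept and Pecam1, Cdh5 and Tie1 were not. The 4 had a median of 0.68 with 1, Emcn, below 0, and 1 passed as higher with the block. Their summed level was 0.10 and 0.06 in Xpo5 siRNA cells against -0.21 and -0.14 in control siRNA cells. Of 10 skeletal muscle markers listed, 6 were kept, with a median of 0.49 and 1 below 0. With the block 3 of the 6 passed as higher, Myh7, Tnnt3 and Myh8, where 2.98% of all genes did. Myh7 and Tnnt3 differed by 1.9 and 0.74 and were well above background on both arrays of each group. Myh8, with a difference of 1.46, was well above background on both Xpo5 siRNA arrays but on only 1 control siRNA array. With Myh8 set aside, the middle value of the other kept genes was that of Des, 0.24. The summed levels of the 6 were 4.33 and 4.65 in Xpo5 siRNA cells against 4.17 and 4.53 in control siRNA cells. Of 7 epithelial markers listed, 4 were kept and Epcam, Cdh1 and Cldn4 were not. The 4 had a median of -0.31 with 3 below 0 and none passing with the block. Their summed levels were 2.55 and 2.28 in Xpo5 siRNA cells against 2.61 and 2.29 in control siRNA cells. The part of any of these in the splicing genes' values was not tested.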

How the data were processed

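Cy3-labelled RNA from each of 4 samples was read on an Agilent array with a single colour, per the labels. The authors' deposited scanner files give spot intensity, extracted with version 10.5.1.1 of Agilent Feature Extraction per the file headers, as a background-subtracted processed signal and as mean and background signals. The deposited series table holds log2 values, which equalled the processed signal scaled to a common median within a tolerance of 0.001 for over 99.7% of probes. Here outlier-flagged and control spots were left out, spots of a probe were averaged, and the log2 processed signal was set relative to each array's 75th percentile. The filter on dim probes asked for the well-above-background flag on both arrays of either group, which 25643 of 41174 probes met. Per gene, the probe with the highest mean was tested with limma 3.58.1 (R 4.3.3, lmFit and eBayes) with Benjamini-Hochberg adjustment over 13922 genes. Gene names came from RefSeq (GRCm38.p6) by accession (26690 probes), symbol (5189) or synonym (952), and 8343 probes had none.

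The members and gene lists were chosen with earlier results of these data known, and no list is independent evidence. Genes were named by a rule of the 4 smallest p-values and 2 brightest genes per family. Other members, such as Srsf4 and Srsf5, and the motifs were chosen after values were seen. The replicate numbers were taken as the 2 experiments of the series text, and same-numbered arrays deviated together (r = 0.451 across 13914 genes, which are not replicates). Precision is limited by 2 arrays per group. The fit without a block was run on simulated data with independent noise and changes larger than those of the splicing genes. That simulation therefore does not bear on the blocked fit or on differences this small. Alternatives changed the background correction, scaling, filter, probe rule, variance model, slide, experiment block, source of values and arrays included.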

Additional observations from a re-analysis of the deposited data

How the results depend on the processing

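Under each of 14 other settings no splicing gene passed the test. The median over the splicing genes lay below that over all genes by between -0.17 and -0.10 (log2). From 44 to 55 splicing genes were below 0. The intensity trend, the slide and experiment blocks and the filter on all 4 arrays left the splicing median at -0.14 with 48 below 0. These settings bear on the test but are no check on the differences, and the deposited values repeat median scaling. The replicate block (experiment as a block) raised the count over all genes to 608 and changed no splicing gene's call. That count was 8 with median scaling and with the deposited log2 values, 0 without the filter, 1 with probes well above background on all 4 arrays, 1 with the mean of a gene's probes, and 0 to 26 leaving out an array. Median scaling and the deposited values moved the median of all genes to -0.10, the splicing median to -0.24, the SR to -0.21, the hnRNP to -0.24 and the snRNP to -0.26, so that 55 splicing genes were below 0. Leaving out each array gave -0.16 to -0.10 for all splicing genes, -0.19 to -0.094 for SR, -0.13 to -0.10 for hnRNP and -0.18 to -0.11 for snRNP. The hnRNP median was -0.13 with normexp, -0.10 with quantile normalization and -0.10 with the mean of probes, and the snRNP median -0.13 with normexp and -0.13 with quantile normalization. Srsf genes alone gave -0.21, an alternative added after seeing the data, as was taking every member probe singly (-0.13). SR minus snRNP ranged from -0.057 to 0.084, SR minus hnRNP from -0.068 to 0.033 and hnRNP minus snRNP from 0.011 to 0.062 leaving out an array. SR minus hnRNP was -0.0056 with quantile normalization and -0.0033 with the mean of probes, and hnRNP minus snRNP was -0.00010 with normexp and 0.059 with the mean of probes. Leaving out an array gave Snrpg -0.37 to 0.12 and Sf3b5 -0.27 to 0.12. Of 24 named splicing genes, 16 moved by over 1.5 times on leaving out an array, and Snrpg and Sf3b5 turned sign. Without replicate 2 of Xpo5 siRNA, Srsf2 was -0.11, Hnrnpd -0.13 and Snrpe -0.05, and without replicate 1 Snrpe was -0.499. Without replicate 1 of control siRNA, Srsf2 was -0.09, Srsf9 -0.10 and Hnrnpa3 -0.05. With normexp 10 of the 24 moved by over 1.5 times, among them Srsf9 to -0.095, Snrpb to -0.05 and Srsf12 to 0.36, and none turned sign. The cause of these shifts was not tested.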
